A study of Mus musculus with 16 samples.

Results

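The 40 genes described here encode the core machinery of autophagy together with cargo receptors and transcription factors that feed it. They were listed by name for their known function, with earlier results of these data known. Each had to be listed in the deposited tables of differential translation and to hold a mean of at least 10 RNA-seq counts on the transcript kept for it. All 40 did, out of 22579 genes with a transcript kept, of which 12242 reached the same mean. The lowest was Atg10, with a mean of 79.1 counts, so no gene lay near the limit.

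The cells came from hair follicle stem cell (HFSC) organoids, a culture of C57BL/6J mouse epidermal cells that holds stem cells and their progeny side by side. After 2 weeks of culture the organoids were sorted into alpha6+CD34+ HFSCs and alpha6+CD34- progenitors, either untreated or given N1-acetylspermidine (N1-AcSpd), an acetylated polyamine, for 72 h. Each lysate gave an RNA-seq library, which measures transcript levels, and a Ribo-seq library, which counts the fragments that ribosomes protect (footprints). With cells from 2 donor mice this made 16 libraries, 8 per assay and 2 per group, so a p-value measures the spread between cultures of 2 mice. The mice carried no transgene in these labels, their age is not given there, and the cells had been kept in culture rather than taken from skin.

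Autophagy delivers cytoplasmic material to the lysosome inside a double-membraned vesicle, the autophagosome. The ULK1 kinase complex starts it, a class III phosphatidylinositol 3-kinase (PI3K) complex marks the membrane, ATG9 vesicles and lipid transfer proteins supply the membrane, and conjugation enzymes attach proteins of the ATG8 family (LC3 and GABARAP) to it. Cargo receptors bind both the cargo and the ATG8 proteins, and TFEB and TFE3 are transcription factors that drive autophagy and lysosome genes. Spermidine is known as an inducer of autophagy, and it serves as the substrate for the hypusine modification of the translation factor eIF5A, on which translation of TFEB has been reported to depend in immune cells.

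Cd34 stood between 67.4 and 89.9 counts scaled to library size (CPM) in the HFSC RNA-seq libraries and between 2.4 and 5.4 in the progenitors. The cells were sorted on CD34, so its RNA is no independent check of the labels. Markers of HFSC identity, Cd34 among them, summed to 838 to 1682 CPM in HFSCs and to 387 to 607 CPM in progenitors. Markers of immune, endothelial and melanocyte cells summed to at most 3.27 CPM in any RNA-seq library, and those of fibroblasts to at most 13.1 CPM. Markers of late epidermal differentiation, summed, stood at 907 and 977 CPM in untreated progenitors and at 1660.4 and 1253 CPM in treated ones, against 617 to 871 CPM in HFSCs. The RNA-seq libraries held 21601141 to 31505435 counts on the kept transcripts, whereas the Ribo-seq libraries held 34467 to 267921 footprints. The replicate number names the donor mouse, but the differences between the mice in treated HFSC RNA-seq ran against those of the other groups (correlation across genes -0.57 to -0.40), so those 2 libraries go against their numbers. This bears on values taken mouse by mouse and on fits that use the mouse, and the fits given first below do not use it.

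At the RNA level the autophagy genes took similar shares of the counts in all groups. Together they took 0.225% and 0.225% of the RNA-seq counts in untreated progenitors and 0.235% and 0.241% in untreated HFSCs. With N1-AcSpd the shares were 0.214% and 0.217% in progenitors and 0.225% and 0.213% in HFSCs. Within each cell type both treated libraries lay below both untreated ones, although treated HFSCs overlapped with untreated progenitors. Gene by gene, the highest of the 8 libraries was less than 1.5 times the lowest for 31 of the 40 genes and less than 2 times for 38. The exceptions were Map1lc3a and Tfeb, which spanned 2.15-fold and 2.14-fold. The share of all genes within the same limits is not given here.

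Per kilobase of transcript, 3 ATG8 genes and 2 cargo receptors held the first 5 places. Map1lc3b, which encodes the LC3B protein used as the standard marker of autophagosomes, averaged 178 CPM per kilobase. Gabarap followed at 116, the receptor Tax1bp1 at 78.5, Map1lc3a at 76.0 and the receptor Sqstm1, which encodes p62, at 66.7 CPM per kilobase. At the other end stood Tfeb at 3.07 CPM per kilobase, the protease Atg4c at 2.75, the ubiquitin-like protein Atg12 at 2.61 and the E2-like enzyme Atg10 at 1.98. Atg12 is the protein that ATG7 and ATG10 join to ATG5. These levels rest on 1 transcript per gene and its whole length.

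HFSCs and progenitors were compared first, to ask whether the stem cell state carries another autophagy program. Averaged over both treatments, 0 of the 40 genes passed the adjusted threshold of 0.05 (edgeR quasi-likelihood test, Benjamini-Hochberg over all genes), against 3.91% of the 14205 genes tested. DESeq2 called 1 member, Tfeb (2.5%), against 6.79% of all genes. At an unadjusted p under 0.05 there were 5 genes, or 12.5%, against 18.1% of all genes. The median log2 fold change of the 40 genes was -0.004, and that of all genes was -0.006. The 95% interval of the change lay within 1.5-fold in either direction for 37 genes and within 2-fold for 39, so for most of the machinery a larger difference in RNA was not seen at this precision.

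Tfeb, the master regulator of lysosome and autophagy genes, had the lowest p-value of the 40. Its RNA read 5.4 and 6.2 CPM in untreated progenitors, 5.2 and 4.8 in treated progenitors, 8.1 and 10.3 in untreated HFSCs and 9.4 and 6.8 in treated HFSCs. Each of the HFSC libraries lay above each of the progenitor libraries. Such a separation, here and for the genes below, rests on the same values as the p-value and adds no support to it. The share of all genes that separate in this way is not given here. The log2 difference was 0.67 ± 0.16 (SE), with a 95% interval of 0.31 to 1.03 and an adjusted p of 0.054. It was 0.66 ± 0.22 between untreated and 0.69 ± 0.23 between treated cells, at adjusted p-values of 0.35 and 0.28. The adjusted p for the average was 0.017 under DESeq2, 0.086 with the mouse as a block and 0.042 without the second library of treated HFSCs, where 2.82% of all genes passed. The transcript used carried 16.6% of the RNA-seq counts over the 12 transcripts of Tfeb, and the sum over them gave a log2 difference of 0.74. Tfe3, its close relative, ran from 41.6 to 49.1 CPM, and its log2 difference was -0.03 ± 0.08.

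Map1lc3a, the LC3A gene, read 60.6 and 85.2 CPM in untreated progenitors, 57.5 and 81.4 in treated progenitors, 86.8 and 123.7 in untreated HFSCs and 87.4 and 93.8 in treated HFSCs. All HFSC libraries lay above all progenitor libraries. By its number the second mouse was higher than the first in every group, but the numbers of the treated HFSC libraries are in doubt, as said above. The log2 difference was 0.46 ± 0.16 with an adjusted p of 0.17. With the mouse as a block the adjusted p was 0.040, and Map1lc3a was the 1 member called in that fit (2.5%), against 3.13% of all genes. The other ATG8 genes had log2 differences between -0.15 (Gabarapl2) and 0.03 (Gabarapl1), none of them at an unadjusted p under 0.05.

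The other 3 genes at that level differed by small amounts. Wipi2, a reader of the PI3K product that recruits the conjugation machinery, read 84.4 and 84.3 CPM in untreated progenitors, 94.7 and 86.2 in treated progenitors, 72.4 and 73.3 in untreated HFSCs and 74.8 and 81.6 in treated HFSCs. The groups did not overlap, and the log2 difference was -0.21 ± 0.07 (adjusted p = 0.15). Atg13, a subunit of the ULK1 complex, ran from 30.2 to 34.9 CPM in progenitors and from 26.3 to 32.7 in HFSCs, with a log2 difference of -0.22 ± 0.08 (adjusted p = 0.21). Tax1bp1 ran from 212 to 282 CPM in progenitors and from 247 to 315 in HFSCs, with a log2 difference of 0.20 ± 0.08 (adjusted p = 0.22).

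Taken one treatment at a time, the comparison gave the same count of calls. Between untreated cells 0 members passed, against 0.148% of all genes, and 2 (Tfeb and Map1lc3a) had an unadjusted p under 0.05, against 9.58%. Between treated cells 0 passed, against 0.746%, and 3 had an unadjusted p under 0.05, against 11.2%. Beside Tfeb these were Atg13 at -0.30 ± 0.12 and Pik3r4 at 0.27 ± 0.10 on the log2 scale. Pik3r4 encodes the VPS15 subunit of the PI3K complex, and it read at most 38.4 CPM in both treated progenitor libraries against 45.7 and 46.1 in treated HFSCs. DESeq2 called 0 members in either comparison, and its shares of all genes there are not given here.

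**Figure D1:**
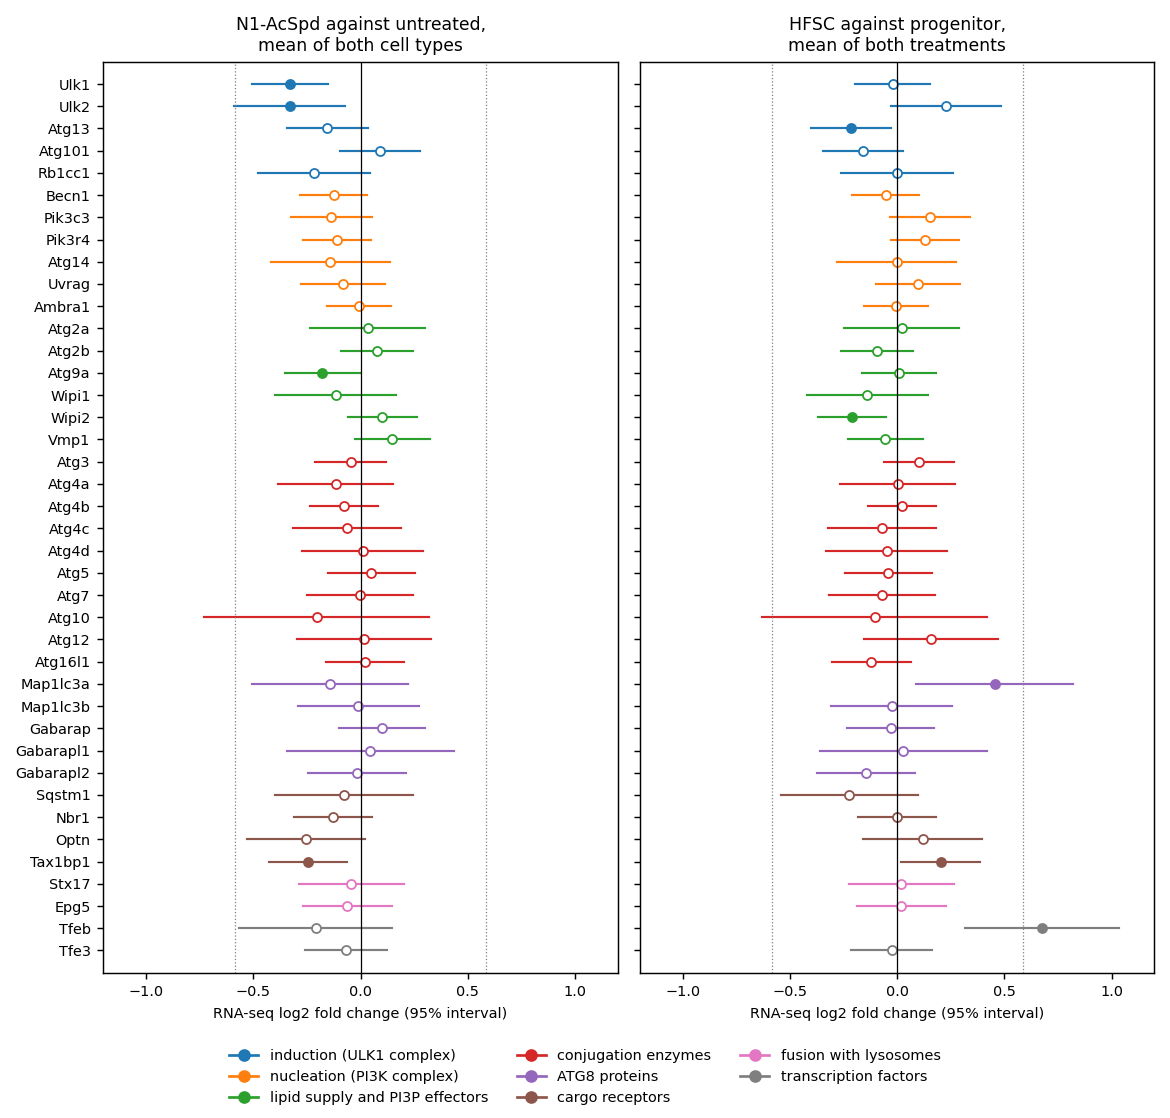
RNA-seq log2 fold changes of the 40 autophagy genes (points) with 95% intervals (lines), ordered and coloured by role; filled points have an unadjusted p under 0.05 and dotted lines mark 1.5-fold. On the left, N1-AcSpd against untreated averaged over cell types, 29 genes lie below 0; on the right, HFSC against progenitor averaged over treatments, Tfeb stands farthest from 0 at 0.67.

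The second comparison asked whether the polyamine changes autophagy gene expression. Averaged over both cell types, 0 of 40 genes passed the adjusted threshold in edgeR, against 1.64% of all genes, and DESeq2 called 1, Ulk1 (2.5%), against 4.09%. At an unadjusted p under 0.05 there were 4 genes, or 10%, all lower with N1-AcSpd, against 15.6% of all genes. In all, 29 of the 40 genes had a lower estimate with N1-AcSpd and 11 a higher one, with a median log2 fold change of -0.07, against -0.01 and 47.1% higher among all genes. Paired by mouse number, 15 genes were higher with N1-AcSpd in the first mouse and 11 in the second, with medians of -0.03 and -0.11. This pairing uses the numbers of the treated HFSC libraries, which are in doubt, as said above. The intervals lay within 1.5-fold for 38 genes and within 2-fold for all 40. Markers of late differentiation also differed between treated and untreated progenitors, as given above, and their part in these values was not tested.

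Ulk1 and Ulk2, listed with the ULK1 complex that receives the signals of nutrient and energy state, had the lowest treatment estimates. Ulk1, the kinase itself, read 74.3 and 69.6 CPM in untreated and 58.1 and 62.5 CPM in treated progenitors. In HFSCs it read 72.8 and 76.6 CPM untreated and 60.5 and 52.3 CPM treated. All 4 treated libraries lay below all 4 untreated libraries, which rests on the same values as the test and adds no support to it. The log2 change was -0.33 ± 0.08, with a 95% interval that ended at -0.15 and an adjusted p of 0.084, and under DESeq2 the adjusted p was 0.041. With the mouse as a block it was 0.12. A block with swapped numbers for treated HFSC RNA-seq, added after the data were seen, called Ulk1 and Ulk2 (5%), against 8.87% of all genes, and between cell types Tfeb and Map1lc3a (5%), against 13.7%. The change was -0.26 ± 0.11 in progenitors and -0.41 ± 0.11 in HFSCs, and the difference between them was within error (interaction -0.15 ± 0.16, adjusted p = 1.00).

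Ulk2, the second kinase of the family, read 33.4 and 37.1 CPM in untreated progenitors against 23.6 and 29.3 in treated ones. In HFSCs it read 38.1 and 39.9 CPM untreated against 37.3 and 28.4 treated, so treated and untreated libraries separated within each cell type, and 1 treated HFSC library lay above the untreated progenitors. The log2 change was -0.33 ± 0.11 (adjusted p = 0.20). The scaffold subunit Rb1cc1 (FIP200) and Atg13 had changes of -0.22 ± 0.12 and -0.15 ± 0.08, and Atg101 had 0.09 ± 0.08. Of the 5 genes of this complex, 4 had lower estimates. At an unadjusted p under 0.05, 2 of them (40% of the complex) were lower, against 7.99% of all genes. The complex was not tested as a set, and neither gene passed the adjusted threshold in the edgeR fit without a block.

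Tax1bp1, a receptor for ubiquitin-tagged cargo, read 282 and 246 CPM in untreated and 212 and 220.0 CPM in treated progenitors. In HFSCs it read 315 and 274 CPM untreated and 266 and 247 CPM treated, so that treated and untreated libraries separated within each cell type. The log2 change was -0.25 ± 0.08 (adjusted p = 0.19). All 4 cargo receptors had lower estimates, Optn at -0.25 ± 0.12, Nbr1 at -0.13 ± 0.08 and Sqstm1 at -0.08 ± 0.14. Atg9a, the membrane protein of the vesicles that seed the autophagosome, read 89.2 and 90.9 CPM in untreated against 71.1 and 78.1 in treated progenitors, and 78.5 and 91.3 against 79.0 and 81.2 in HFSCs. Its log2 change was -0.18 ± 0.08 (adjusted p = 0.31).

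**Figure D2:**
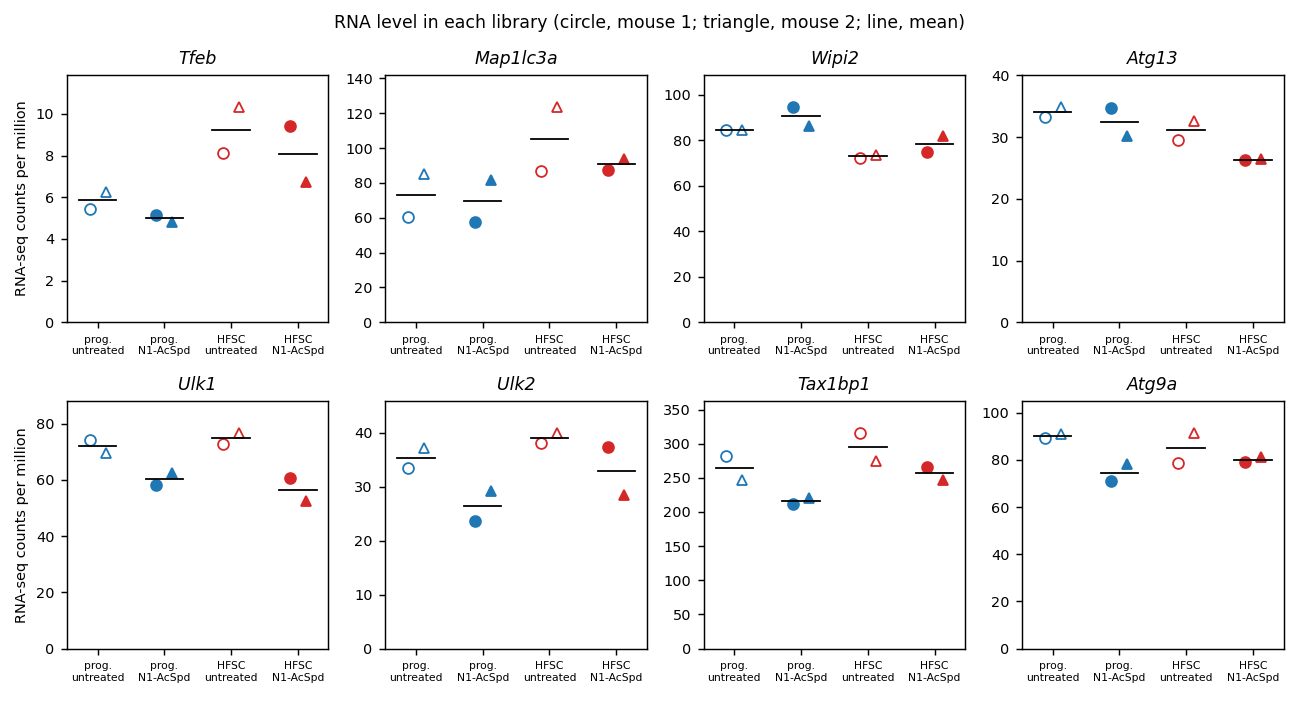
RNA-seq CPM of 8 autophagy genes in each library of the 4 groups (circle, first mouse; triangle, second mouse; line, mean; blue, progenitors; red, HFSCs; filled, N1-AcSpd). Tfeb and Map1lc3a are higher in all HFSC libraries than in all progenitor libraries, and Ulk1 is lower in all treated than in all untreated libraries.

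Each cell type was also tested on its own. In progenitors 0 genes passed, against 0.239% of all genes, and 5 had an unadjusted p under 0.05, against 8.88%. These were Ulk2 (-0.41 ± 0.16), Tax1bp1 (-0.29 ± 0.11), Atg9a (-0.27 ± 0.11), Ulk1 and Pik3r4 (-0.25 ± 0.10), each with a lower value in treated cells. In HFSCs 0 passed, against 0% of all genes, and 1 gene, Ulk1, had an unadjusted p under 0.05, against 7.74%. Estimates were lower in both cell types for 23 of the 40 genes, higher in both for 7 and opposite for the remaining 10. How all genes divide in this way is not given here, so the split is not read as particular to these genes. The comparisons in progenitors and in HFSCs share no library, but all 8 were scaled together. In HFSCs the count differed by mouse number, with 22 genes higher with N1-AcSpd in the first mouse and 7 in the second. The numbers of the treated HFSC libraries are in doubt, as said above, so these counts do not measure how the donors differ. No member passed the test of the difference between the cell types, where 0% of all genes did, and 0 had an unadjusted p under 0.05, against 0.831%. DESeq2 called 0 members in these 3 tests, for which its shares of all genes are not given here.

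**Figure D3:**
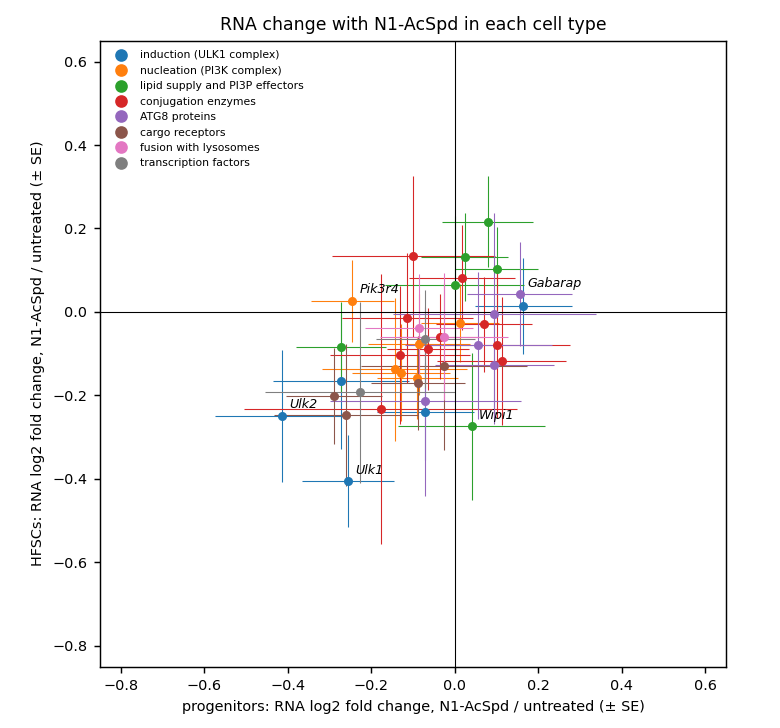
RNA-seq log2 fold change with N1-AcSpd in progenitors (x axis) and in HFSCs (y axis) for the 40 genes, with standard errors as bars and colours by role. The lower left quadrant holds 23 genes, with Ulk1 and Ulk2 farthest from 0.

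The PI3K complex, formed around the lipid kinase VPS34 (Pik3c3) and beclin 1 (Becn1), had treatment estimates from -0.14 to -0.01. Becn1 ranged from 77.6 to 90.1 CPM over all libraries with log2 changes of -0.12 ± 0.07 with treatment and -0.05 ± 0.07 between cell types. Among the genes for lipid supply and PI3K product readers, Vmp1, an endoplasmic reticulum protein needed for autophagosome formation, had the highest treatment estimate of the 40, at 0.15 ± 0.08. Stx17 and Epg5, which act in fusion with lysosomes, stood between -0.06 and 0.02 in both averaged comparisons.

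The 10 conjugation genes held estimates near 0, and none had an unadjusted p under 0.05 in any RNA-seq comparison. Atg5, part of the E3-like complex, ranged from 27.8 to 33.7 CPM, with 0.05 ± 0.09 for treatment and -0.04 ± 0.09 for cell type. Atg7, the E1-like enzyme, ranged from 21.2 to 29.1 CPM, with log2 changes of -0.002 ± 0.11 and -0.07 ± 0.11. Among the ATG8 genes, Map1lc3b ranged from 116 to 162 CPM, with -0.01 ± 0.12 and -0.03 ± 0.12. Gabarapl1 ranged from 11.3 to 19.6 CPM, with 0.05 ± 0.17 and 0.03 ± 0.17. Sqstm1, whose RNA is often followed beside LC3B, ranged from 103 to 173 CPM. Both ends of this range were libraries given N1-AcSpd and numbered to the second mouse, HFSCs at the bottom and progenitors at the top. The mouse number of that HFSC library is in doubt, as said above.

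TFEB and TFE3 are known to bind E-boxes with the core CACGTG, so the promoters were searched for these letters, which read the same on both strands. A RefSeq promoter of build GRCm38.p6, from 250 bases before to 50 after the start, was available for 33 of the 40 genes. Of these, 4 (12.1%) held the core, against 8.09% of the 27025 genes with a promoter listed. The longer palindrome TCACGTGA, which contains it, was found in 1 member (3.03%), Atg3, whereas 1.12% of all genes held it. The windows are shown because 3 of the 4 genes, Atg3, Atg5 and Atg7, belong to the conjugation group, with the E-box in capitals.
Atg3, chr16:45158723-45158752, + strand: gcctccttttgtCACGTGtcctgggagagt
Atg3, chr16:45158746-45158775, + strand: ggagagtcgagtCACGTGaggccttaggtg
Atg5, chr10:44268313-44268342, + strand: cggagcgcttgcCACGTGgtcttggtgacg
Atg7, chr6:114670952-114670981, + strand: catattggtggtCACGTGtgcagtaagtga
Atg14, chr14:47568418-47568447, - strand: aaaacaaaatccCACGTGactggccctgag
The cores begin 94 and 71 bases before the start in Atg3, 14 in Atg5, 132 in Atg7 and 1 in Atg14, counted from the RefSeq start. That start is the 5′ end of the transcript counted here for Atg14, lies 44 bases after it in Atg3 and 19 before it in Atg5, and lies 27984 bases after it in Atg7, so the window of Atg7 belongs to another start than the transcript whose values are given. Atg14 encodes the subunit that directs the PI3K complex to autophagy. Between HFSCs and progenitors these 4 genes had log2 differences of 0.10 ± 0.07 (Atg3), -0.04 ± 0.09 (Atg5), -0.07 ± 0.11 (Atg7) and -0.003 ± 0.12 (Atg14). A match describes the letters in this window and no more.

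Other genes of the pathway were followed in lists of known function. Of 42 further autophagy genes tested in RNA-seq, 1 rose and 1 fell with N1-AcSpd averaged over cell types at the adjusted threshold (4.76%, against 1.64% of all genes). At an unadjusted p under 0.05, 21.4% of the list were lower, against 7.99% of all genes, and 4.76% were higher, against 7.63%. The list was not tested as a set. Bnip3, a mitophagy receptor induced by hypoxia, read 171 and 165 CPM in untreated and 90.4 and 124 CPM in treated progenitors, and 183 and 148 against 117 and 93.9 CPM in HFSCs. It fell by 0.65 ± 0.12 on the log2 scale (adjusted p = 0.044). Dapk1, a kinase that phosphorylates beclin 1, rose by 0.48 ± 0.09 (adjusted p = 0.046). It read 31.7 and 32.6 CPM in untreated and 41.8 and 49.0 CPM in treated progenitors, and 20.8 and 21.8 against 32.4 and 26.6 CPM in HFSCs. Dapk1 was also lower in HFSCs (-0.61 ± 0.09, adjusted p = 0.012), while Ccpg1, an ER-phagy receptor, was higher (0.59 ± 0.12, adjusted p = 0.035). These 2 are also 4.76% of the list, against 3.91% of all genes. At an unadjusted p under 0.05, 9.52% of the list were higher in HFSCs and 7.14% lower, against 9.22% and 8.88% of all genes.

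Lysosome genes include many known TFEB targets. Of 52 tested, 0 passed in either averaged comparison, with a median log2 difference of -0.06 between HFSCs and progenitors and 0.03 with N1-AcSpd. At an unadjusted p under 0.05, 1 was higher (1.92%, against 9.22% of all genes) and 4 were lower in HFSCs (7.69%, against 8.88%). With N1-AcSpd 4 were higher (7.69%, against 7.63%), among them the protease gene Ctsd (0.26 ± 0.08, adjusted p = 0.15), and 0 were lower, against 7.99%. Of 32 mTORC1 and AMPK regulators, 1 passed between cell types (3.12%, against 3.91% of all genes), the stress sensor Sesn1, which was higher in HFSCs (0.65 ± 0.12, adjusted p = 0.027), and 0 passed with treatment. None of 10 other transcription factors linked to autophagy passed. The 4 genes of the hypusine pathway did not pass either, and with N1-AcSpd their estimates ran from 0.04 to 0.22. Eif5a itself stood between 706 and 923 CPM.

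Footprints on the 40 genes were few. Over the 8 Ribo-seq libraries they summed to 2203 of 845932, against 457013 RNA-seq counts. Per library there were 96 to 701 footprints on 23 to 38 of the genes, and the share of all footprints ran from 0.199% to 0.299%. A library with 0 footprints on a gene allows up to 3, which is between 12.2 and 75.5 CPM, and this covers counting error alone. Just 5 genes gave 51.7% of the members' footprints, Sqstm1 with 348, Tax1bp1 with 292, Gabarap with 239, Vmp1 with 134 and Nbr1 with 126, while they took 33.6% of the members' RNA-seq counts.

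Footprints per RNA-seq count, each as a share of its total, had a median of 0.96 over the 40 genes and of 0.95 over the 12242 genes expressed. The ratio was highest for Atg10 (4.57, from 12 footprints), Gabarapl1 (4.13) and Sqstm1 (3.07), and lowest for Gabarapl2 (0.041), Ulk2 (0.14) and Map1lc3b (0.21). In part the low values went with sequence copies in the genome. Of the 28-base words in the coding sequence, 99.7% of those of Gabarapl2 occurred elsewhere in the genome, as did 83.5% of those of Atg4a and 71.5% of those of Map1lc3b, whereas 31 of the 40 genes had none. Gabarapl2 had 1 footprint, Atg4a 2 and Map1lc3b 24, the last against more RNA-seq counts than Sqstm1. Ulk2, with 4 footprints, had no such words. How reads with several matches were counted is not stated, so values of Gabarapl2, Atg4a and Map1lc3b are uncertain in both assays.

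**Figure D4:**
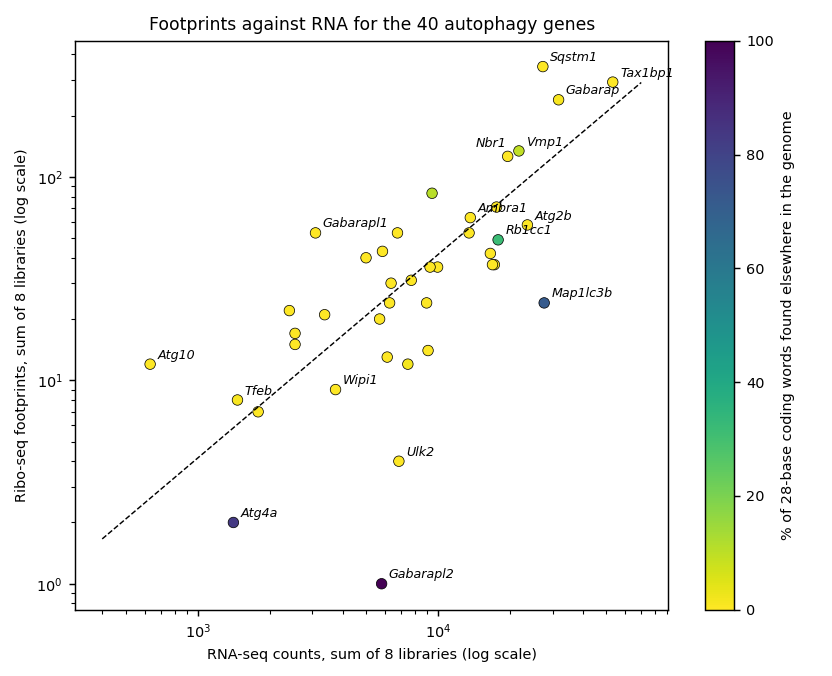
Footprints against RNA-seq counts of the 40 genes, each summed over 8 libraries, on log axes, coloured by the percent of 28-base coding words found elsewhere in the genome. The dashed line is the ratio over all genes; Sqstm1 and Gabarapl1 lie above it, and Gabarapl2, Atg4a, Map1lc3b and Ulk2 below it.

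Ribosome occupancy was then compared as footprint counts. The 36 genes with a mean of at least 1 footprint were tested, which leaves out Ulk2, Atg4a, Atg4c and Gabarapl2. By edgeR 0 of 36 passed in any of the 7 comparisons, nor did any with DESeq2. The shares of all genes that follow are from edgeR, and those under DESeq2 are not given here. Between HFSCs and progenitors the shares of all genes that passed were 0.154% averaged over treatments, 0.0237% untreated and 0.0356% treated. With N1-AcSpd they were 0.083% averaged over cell types, 0.0237% in progenitors and 0% in HFSCs, and the interaction had 0%. The median standard error of a log2 change was 1.12 between untreated cells. After averaging, the interval lay within 2-fold for 3 genes with treatment and 4 between cell types. For the other genes a 2-fold change in footprints was not excluded at this depth.

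At an unadjusted p under 0.05, 2 genes appeared in each averaged comparison, or 5.56%, against 4.84% of all genes for treatment and 4.14% for cell type. Gabarap held 2 and 73 footprints in untreated progenitors, 6 and 39 in untreated HFSCs, 30 and 23 in treated progenitors and 43 and 23 in treated HFSCs. Scaled to library size this is 50 and 296 CPM, 107 and 313 CPM, 373 and 385 CPM, and 300.1 and 382 CPM. The first mouse was low in both untreated groups, and the log2 change with N1-AcSpd was 0.70 ± 0.35 (adjusted p = 1.00). It ran from 0.44 without the first to 1.71 without the second untreated progenitor library. Atg14 held 1 and 5 footprints in untreated progenitors, 5 and 7 in untreated HFSCs, 0 and 3 in treated progenitors and 0 and 0 in treated HFSCs. With 3 footprints in place of 0 over the group, it was 4.56-fold lower in treated than in untreated HFSCs (adjusted p = 1.00, edgeR). That ratio takes the 12 footprints of untreated HFSCs as exact and leaves out the spread between cultures, so it is no lower limit.

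Between cell types the 2 genes were Stx17 and Map1lc3b. Stx17 held 0 and 12 footprints in untreated and 4 and 4 in treated progenitors, against 0 and 0 in untreated and 2 and 0 in treated HFSCs, so 1 progenitor library also had none (adjusted p = 0.85). Map1lc3b held 0 and 7 in untreated and 0 and 0 in treated progenitors, against 0 and 9 and then 8 and 0 in HFSCs, which is footprints in 3 of 8 libraries (adjusted p = 1.00).
In single comparisons the unadjusted level was met by 1 gene between untreated cells, against 2.66%, by 2 between treated cells, against 3.45%, by 2 with treatment in progenitors, against 2.8%, by 1 in HFSCs, against 3.55%, and by 1 in the interaction, against 2.66%.

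The genes with the most footprints gave the tightest values. Sqstm1 held 5 and 145 footprints in untreated and 21 and 37 in treated progenitors, and 19 and 48 against 47 and 26 in HFSCs. Its log2 change was 0.06 ± 0.32 with N1-AcSpd and -0.19 ± 0.32 between cell types. Tax1bp1 held 24 and 84 footprints in untreated and 37 and 14 in treated progenitors, and 18 and 55 against 39 and 21 in HFSCs, with log2 changes of -0.34 ± 0.33 and -0.20 ± 0.33. Vmp1 and Nbr1 had 0.26 ± 0.43 and 0.11 ± 0.43 with treatment. Tfeb had 8 footprints in all, 0 and 3 in untreated progenitors, 4 and 1 in treated HFSCs and 0 in the other 4 libraries, so its translation could not be compared.

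Translational efficiency, the change in footprints beyond that in RNA, was tested in 1 fit over the 16 libraries. The edgeR fit used 1 measure of spread per gene for both assays. Its median standard error between untreated cells was 0.83, below the 1.12 of footprints alone. Its standard errors and unadjusted p-values are therefore likely too small. By edgeR, DESeq2 or limma voom 0 of 36 genes passed in any of the 6 comparisons, against 0% of the 8430 genes tested in edgeR. The shares of all genes under DESeq2 and voom are not given here. In edgeR, at an unadjusted p under 0.05, there were 3 genes with treatment averaged over cell types, or 8.33%, against 7.37% of all genes. Between cell types there were 5, or 13.9%, against 6.01%. The treatment genes were Atg14, Epg5 (1.42 ± 0.61) and Atg101 (-1.02 ± 0.48) on the log2 scale, with adjusted p-values of 0.60, 0.64 and 0.67. Between cell types the lowest p was that of Stx17 (adjusted p = 0.76), and the others were Map1lc3b, Becn1 (-1.36 ± 0.59), Epg5 (-1.37 ± 0.60) and Atg5 (1.55 ± 0.74). These sizes rest on single libraries. A group of Epg5 held 0 footprints without the second untreated HFSC library, and so did a group of Atg5 without the second treated progenitor library, after which no size can be given. Without the second untreated progenitor library Atg101 stood at -0.38 and an untreated group of Becn1 was at 0. Becn1 rested on 0 and 13 footprints in untreated and 6 and 8 in treated progenitors, against 2 and 2 and then 6 and 0 in HFSCs.
In single comparisons the counts were 3 of 36 between untreated cells, against 5.49% of all genes, 7 between treated cells, against 6.04%, 5 with treatment in progenitors, against 5.92%, and 5 in HFSCs, against 7.09%.

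In HFSCs 28 of 36 genes had a higher efficiency estimate with N1-AcSpd, with a median log2 change of 0.41, against 50% of all genes and a median of 0.0004. The values differed by mouse number, with 29 genes higher and a median of 0.76 in the first mouse. In the second mouse 18 genes were higher, with a median of -0.05. The medians of all genes were 0.26 and -0.20. Values by mouse number also use the treated HFSC RNA-seq libraries, whose numbers are in doubt, as said above. Without the first treated HFSC Ribo-seq library the median was -0.30. With groups at 0 set to 3 footprints and genes at or under 3 in both groups left out, the median over 32 genes was 0.37. In progenitors the median efficiency change was 0.17 with 22 of 36 genes higher, and averaged over cell types it was 0.18. The values over all genes for these comparisons are not given here.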

How the data were processed

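RNA-seq and Ribo-seq were made from the same lysates of 8 sorted samples. Following the paper's methods and the submitters' processing notes, the authors used flexbar for adapter trimming and Bowtie 1.2.3 to discard reads from rRNA and tRNA, aligned with STAR 2.7.3a to GRCm38.p5 and counted with featureCounts; the strand, the counted region and the treatment of multiply matching reads are not given in the sources used here. The authors deposited unscaled counts per transcript, without pooling replicates. Deposited columns of the authors' own comparisons (log2 fold changes, p-values) were not used.

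For each gene a single transcript was used, chosen by its footprint total with ties broken by RNA-seq counts. Because strand is not stated, overlapping genes cannot be told apart. Counts were fitted with edgeR 4.0.16 (R 4.3.3; TMM, quasi-likelihood test, minimum mean of 1 count per gene, Benjamini-Hochberg over all genes tested), 8 libraries and 4 groups per assay, and all 16 libraries for translational efficiency with TMM within each assay. CPM are counts over TMM-scaled library sizes. The fits were tested on simulated counts. Intervals are 95% intervals from the fit. Per-mouse values are differences of log2 CPM with a prior count of 2. Depth differed up to 7.77-fold between Ribo-seq libraries, so footprint values of the shallow libraries are the less precise ones.

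The members and gene lists were chosen with earlier results of these data known. Genes named are fixed anchors (Tfeb, Tfe3, Ulk1, Becn1, Atg5, Atg7, Map1lc3b, Gabarapl1, Sqstm1), any member that passes, members with the smallest unadjusted p-values in each comparison, and the 5 with the most footprints. Vmp1 as the highest treatment estimate, genes at the ends of level and footprint ratio orders, and genes named from other lists were chosen after their values were seen. Proline runs in the proteins were not analysed here. Alternatives were DESeq2 1.42.0, RLE scaling, other count minimums (none, or a mean of 10), a block for the mouse, fits to the compared libraries alone, each library or mouse left out, sums over transcripts and, for efficiency, limma 3.58.1 voom.

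Replicate numbers name the donor mouse and so pair the samples. The differences between mice correlated at 0.35 to 0.59 across 12242 genes among 3 RNA-seq groups and at -0.57 to -0.40 between treated HFSCs and these; in Ribo-seq they correlated at 0.024 to 0.11 across 2259 genes.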

Additional observations from a re-analysis of the deposited data

How the results depend on the processing

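The count of members called stayed at 0 in 352 of 359 fits under the alternatives. Each of the 7 others is given with the share of all genes called in the same fit. With DESeq2 it was 1 for RNA with treatment averaged over cell types (Ulk1, 4.09% of all genes) and 1 for RNA between cell types averaged over treatments (Tfeb, 6.79%). For the latter it was also 1 without a minimum count (Tfeb, 5.45%) and 1 with the replicate block (Map1lc3a, 3.13%), and it ran from 0 to 1 when single libraries were left out. Without the second treated HFSC RNA-seq library Tfeb passed (2.82%). The block changed no other call. A crossed pairing that swaps the numbers of treated HFSC RNA-seq, added once the data had been seen, gave 2 members with the block in each of these comparisons (5%), against 8.87% of all genes for treatment and 13.7% between cell types. The causes of these differences between fits were not tested. In the main fits at most 0.154% of all genes passed for footprints and 0% for efficiency. In RNA comparisons of 2 groups at most 0.746% passed. A count of 0 members was therefore likely there under any setting, and 352 of 359 does not measure stability.

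Among named genes 538 values kept direction and side of the threshold, 9 came to pass, and 1 reversed, the efficiency of Becn1 between cell types without the second untreated progenitor Ribo-seq library (log2 change 4.71, adjusted p = 0.80), which then rests on groups at 0. Over all single libraries left out this value ran from -7.09 to 4.71. Medians moved by less than the standard deviation of the per-mouse medians, which use the mouse numbers, in 320 of 399 cases. That standard deviation rests on 2 medians, which are themselves among the cases, and it is widest where the mice differ most. The count of 320 is therefore no measure of stability. The RNA median for treatment averaged over cell types ran from -0.11 to -0.03, and the efficiency median for treatment in HFSCs from -0.30 to 1.40. Sums over transcripts count a read more than once. Depth limits footprint values, with 2203 footprints on 40 genes. With 2 libraries against 2, an exact permutation test cannot go below p = 0.333.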
